A study of Mus musculus with 8 samples.

Results

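The 10 genes described here are predicted, multi-copy genes of the mouse 2-cell embryo: Gm8300, Gm2016, Gm5662, Gm2022, Gm2035, Gm2056, BB287469, AF067063, Gm21761 and Gm4340. They were chosen by symbol, and all 10 were found among the 55487 genes of the deposited table. RNA was measured by sequencing in 8 libraries, each from a pool of 5 embryos injected as zygotes 20 h after human chorionic gonadotropin and collected 10 h later at the 2-cell stage. The 4 control libraries came from embryos that received CasRx, an RNA-guided nuclease that cuts RNA, with no guide named in the labels, and their genotype is given as WT. The 4 other libraries came from embryos that received CasRx and a guide against Polq, which encodes DNA polymerase theta, with the genotype given as polq knockdown, and the comparison asks what this injection does to the transcriptome. All 8 pools therefore carry CasRx, and no uninjected group was analysed here. The labels do not say whether the controls received a guide without a target. The injected embryo is a transient model, and a pool gives the mean of its embryos.

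At the 2-cell stage the mouse embryo switches on its own genome in a burst of transcription. That burst is known for recently duplicated genes that lie in clusters and are silent in most later cells, together with retroviral elements of the MERVL family and the homeobox factor DUX that activates many of them. Because the copies of such a family are nearly identical, a sequencing read often matches several of them, and the level of a single copy is harder to measure than that of its family.

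By coding sequence the 10 genes fell into 3 groups, with at most 47.5% identity between members of different groups. In the eIF1A-like group are 7 genes, Gm8300, BB287469, Gm2016, Gm2022, Gm2035, Gm2056 and Gm5662, each with a single coding exon of 435 bases that spells 144 codons. Their relative Eif1a encodes translation initiation factor eIF1A, which binds the small ribosomal subunit and helps it scan for the start codon. AF067063 and Gm21761 belong to the Tcstv family, named for variable transcription at the 2-cell stage. Gm4340 is related to Alyref, an adaptor for the export of messenger RNA from the nucleus.

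The 7 eIF1A-like genes lie on chromosome 12 (GRCm38) between 87514316 and 88274500. Over the whole coding sequence they were 96.8% to 99.1% identical to one another, with 4 to 14 differing bases in a pair. Gm2016 and Gm5662 were the closest pair, and Gm2056 and BB287469 the farthest. Identity to Eif1a was 93.6% to 94.9% and to Eif1ax, its homologue on the X chromosome, 83.7% to 85.3%. Of the 435 coding positions, 22 varied among the 7 genes, and the stretch with most of these, coding bases 343 to 432 with 8 variable positions, is shown to let the copies be told apart. It encodes the acidic C-terminal end of the protein, lies in the coding exon, and is written 5′ to 3′ on the strand of the gene (GENCODE M21 on GRCm38), with capitals where a copy differs from the majority.
Gm8300 at chr12:87517239-87517328, plus strand: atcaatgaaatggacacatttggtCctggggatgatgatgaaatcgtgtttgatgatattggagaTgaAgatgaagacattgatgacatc
BB287469 at chr12:87819663-87819752, plus strand: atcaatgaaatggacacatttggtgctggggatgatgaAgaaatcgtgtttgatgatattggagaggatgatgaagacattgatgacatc
Gm2016 at chr12:87876927-87877016, plus strand: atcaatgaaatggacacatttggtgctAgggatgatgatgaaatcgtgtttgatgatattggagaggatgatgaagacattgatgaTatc
Gm2022 at chr12:87895712-87895801, plus strand: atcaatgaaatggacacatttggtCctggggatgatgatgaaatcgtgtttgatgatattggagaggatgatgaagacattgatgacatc
Gm2035 at chr12:87919426-87919515, minus strand: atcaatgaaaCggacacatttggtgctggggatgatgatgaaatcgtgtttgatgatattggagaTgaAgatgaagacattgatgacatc
Gm2056 at chr12:88027346-88027435, plus strand: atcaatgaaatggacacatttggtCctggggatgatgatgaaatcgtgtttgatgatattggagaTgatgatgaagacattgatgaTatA
Gm5662 at chr12:88271557-88271646, minus strand: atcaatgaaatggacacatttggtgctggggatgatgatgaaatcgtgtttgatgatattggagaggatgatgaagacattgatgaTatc

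Even in this most variable stretch each copy carried only 1 to 4 capitals. BB287469 had 1, and its whole coding sequence was identical to that of Gm4027, a copy in the same cluster. RefSeq lists Gm2035 and Gm2056 as pseudogenes where GENCODE lists protein-coding genes, and for Gm2022, Gm2035 and Gm2056 GENCODE annotates no more than the coding exon of 435 bases.

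AF067063 and Gm21761 lie on chromosome 13 and are more distant from each other, at 78.8% coding identity with 110 differing positions in an alignment of 519. Gm21761 was 95.5% identical to Tcstv1 and 94.4% to Tcstv3, while AF067063 was 77.3% and 78.5% identical to them. A stretch of 90 bases from the coding exons of the pair, in which 25 positions differ, shows how far the pair has diverged, with capitals where it differs.
Gm21761 at chr13:119912607-119912696, minus strand: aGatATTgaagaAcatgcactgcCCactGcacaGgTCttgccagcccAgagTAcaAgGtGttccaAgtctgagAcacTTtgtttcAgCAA
AF067063 at chr13:119828531-119828620, minus strand: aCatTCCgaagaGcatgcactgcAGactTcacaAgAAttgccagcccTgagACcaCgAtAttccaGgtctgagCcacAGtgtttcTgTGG

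Gm21761 overlaps another annotated gene, Gm21181, on the same strand. Gm4340, at 104194042 to 104196522 of chromosome 10 (plus strand), had 67.7% coding identity to Alyref, and its translation matched that of Alyref at 80.1% over 166 aligned codons.

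RefSeq promoters (GRCm38.p6) were available for BB287469, Gm4340 and Gm21761, 1 gene of each group. The 100 bases before the annotated RefSeq start are shown for these 3 genes, the only members with an entry. Whether these letters bear on the order of libraries described further on was not tested. For Gm21761, on the minus strand, the RefSeq gene ends at 119913468 and the GENCODE gene at 119929272, so the window lies inside the latter. Capitals mark matches, on either strand, to GGATTA, the core recognised by OTX- and OBOX-type homeodomain factors, and to the TATA-like letters TATATA and TATAAG.
BB287469 at chr12:87816477-87816576, plus strand: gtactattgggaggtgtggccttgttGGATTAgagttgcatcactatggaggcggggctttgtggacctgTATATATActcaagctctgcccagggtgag
Gm4340 at chr10:104193942-104194041, plus strand: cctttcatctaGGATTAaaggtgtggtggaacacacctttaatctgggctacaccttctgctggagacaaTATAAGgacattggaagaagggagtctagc
Gm21761 at chr13:119913469-119913568, minus strand: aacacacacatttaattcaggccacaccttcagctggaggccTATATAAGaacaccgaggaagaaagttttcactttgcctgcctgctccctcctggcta

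A TATA-like match began 30 bases before the start of BB287469 and of Gm4340, and 58 bases before that of Gm21761, where TATATA and TATAAG overlap. GGATTA stood in the window shown for BB287469 and Gm4340, and in the longer window of 300 bases (250 before to 50 after the start) for all 3. Among 32851 mouse promoters, GGATTA was present in 7.06% of the windows of 300 bases and in 2.30% of those of 100 bases. TATATA was present in 5.67% and 2.20% and TATAAG in 7.43% and 2.95%. A match describes the letters only.

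Library totals ran from 33311679 to 43748629 counts in the controls and from 4726160 to 33650068 in the other group, where replicates 1, 2 and 3 held 4726160, 8627402 and 8100972. Polq, the targeted gene, was at 34.6, 49.7, 40.1 and 32.7 counts per 1000000 (CPM, after TMM scaling, edgeR's trimmed-mean method) in controls 1 to 4 and at 16.9, 38.9, 29.2 and 41.1 CPM in the other group (log2 fold change in edgeR −0.32, SE 0.34, adjusted p = 1.0). Its groups overlapped, so the second group is called knockdown-labelled, and every direction below is knockdown-labelled minus control. Oocyte and early embryo markers summed to 33259 to 40778 CPM in the controls against 28394 to 44364 CPM under the knockdown label. Dppa3 alone held 32523 to 40150 and 27994 to 43930 CPM of this sum. Of its 7 markers 1 had a log2 fold change above 0 and 6 below, and none passed the edgeR test. The 2-cell markers summed to 367 to 890 and 462 to 863 CPM. Of 8 cumulus and granulosa cell markers 5 were at 0 in all 8 libraries and their sum was 0 to 21.5 and 0.793 to 10.7 CPM. Of 4 sperm markers 3 were at 0, and Prm2 was at 0 to 7.06 and 0 to 7.34 CPM. Of 3 blood markers 1 was at 0 in all 8 libraries. Their sum, largely from Hba-a1, was 0.0229 to 16.2 and 5.83 to 9.12 CPM. The series text calls the samples biological replicates, and in pools of whole embryos a loss of cells cannot be told apart from less RNA per cell. CPM are relative to each library, so a change in total RNA would not show in them.

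All 10 members were expressed in both groups, and none separated them. The eIF1A-like group held the most abundant member, Gm5662, which was at 387, 1450, 638 and 1085 CPM in controls 1 to 4 and at 1272, 1055, 488 and 719 CPM in knockdown-labelled replicates 1 to 4. Controls 2 and 4 were high, controls 1 and 3 low, and the knockdown-labelled values lay inside the control range. The fitted knockdown-labelled level of Gm5662 was 99.2% of control with a 95% interval from 52.7% to 187% (log2 fold change in edgeR −0.012, SE 0.41, adjusted p = 1.0).

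Gm8300 followed, at 255, 945, 502 and 768 CPM in the controls against 743, 604, 307 and 454 CPM under the knockdown label. Gm2016 was at 160, 899, 407 and 730 CPM in controls 1 to 4 against 772, 414, 269 and 400 CPM under the knockdown label. In both genes every knockdown-labelled value lay between the lowest and the highest control. Their fitted levels were 85.3% of control (interval 46.6% to 156%) for Gm8300 and 84.5% (39.9% to 179%) for Gm2016.

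BB287469 was at 73.2, 200, 118 and 201 CPM in controls 1 to 4 against 224, 154, 53.3 and 111 CPM under the knockdown label, where replicates 1 and 3 passed the controls at either end. Gm2022 was at 13.4, 87.8, 45.2 and 73.9 CPM in the controls, a 6.54-fold range within 1 group, and at 96.0, 80.1, 35.9 and 47.7 CPM under the knockdown label. For Gm2022 the fitted level was 118% of control with an interval from 52.0% to 266%, and for BB287469 91.6% with an interval from 46.1% to 182%. Changes inside these wide intervals were not detectable with these libraries.

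The 2 members that RefSeq lists as pseudogenes were the lowest of the eIF1A-like group. Gm2056 was at 13.7, 28.9, 16.1 and 37.7 CPM in the controls against 45.2, 30.0, 16.8 and 25.3 CPM under the knockdown label. Gm2035 was at 14.0, 32.2, 13.4 and 31.0 CPM in the controls against 23.2, 25.4, 10.1 and 23.3 CPM under the knockdown label. Each was counted in all 8 libraries, the fewest reads being 145 for Gm2056 and 87 for Gm2035, both in knockdown-labelled replicate 3. Their groups overlapped, with fitted levels of 122% of control (interval 61.6% to 240%) for Gm2056 and 90.5% (44.8% to 183%) for Gm2035.

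**Figure D1:**
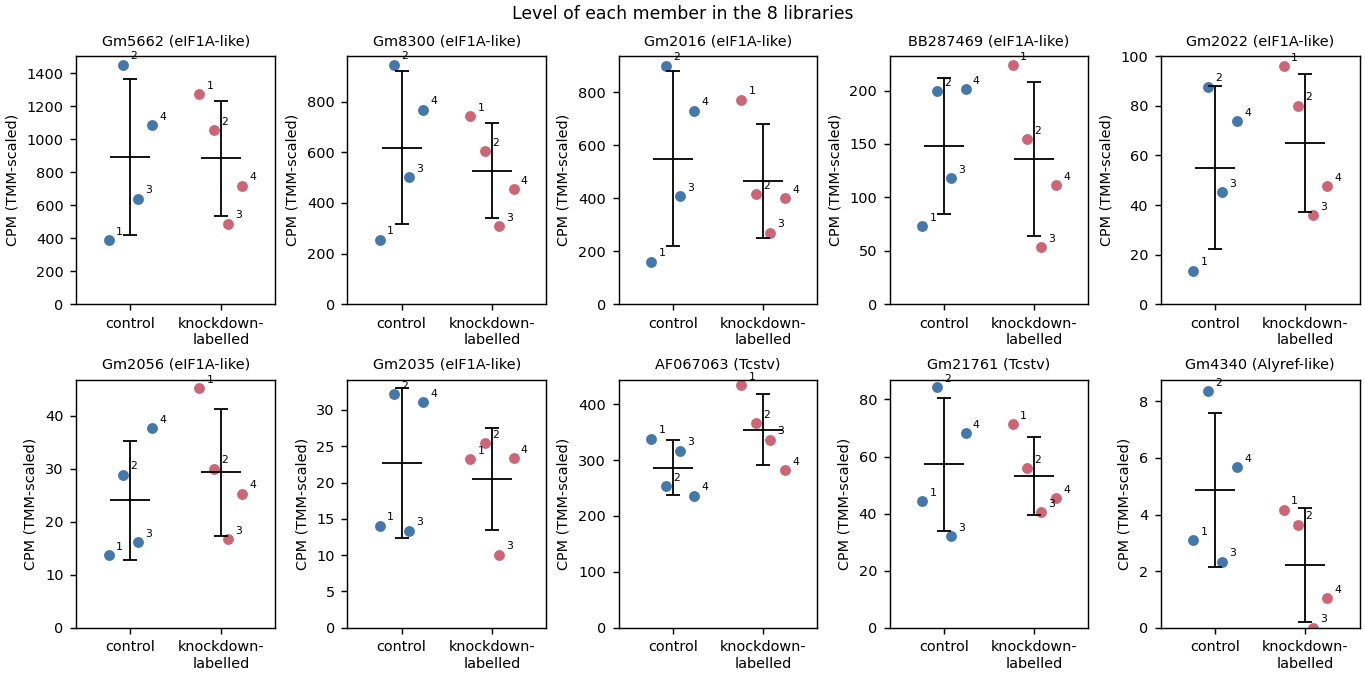
TMM-scaled CPM of the 10 members (y axes from 0, 1 panel each) in 4 control and 4 knockdown-labelled libraries; points carry the replicate number, and the bar and whiskers are the mean and SD. The 2 groups overlap in every panel, and in most panels controls 2 and 4 stand above controls 1 and 3.

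Summed over the 7 members, the eIF1A-like level is less affected by how counted reads were divided among them. If reads that match other copies were left out, the sum and each member's part of it would miss them too. Whether any were left out was not tested. The sum was 917, 3643, 1739 and 2927 CPM in the controls, a mean of 2307 ± 1214 (SD, n = 4). In the knockdown-labelled libraries it was 3174, 2363, 1180 and 1781 CPM, a mean of 2125 ± 850.2 (SD, n = 4). The lowest and the highest sum were both controls, and the log2 ratio of the means was −0.12. Gm5662, Gm8300 and Gm2016 together made up 87.5% to 90.4% of the sum in each library.

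The make-up of the sum by its 3 abundant members varied far less between libraries than its size. Gm5662 took 36.7% to 44.6% of it, Gm8300 23.4% to 28.8%, Gm2016 17.5% to 24.9% and BB287469 4.51% to 7.98%. Gm2035 took 0.731% to 1.53% and Gm2056 0.792% to 1.49%. Gm2022 had 1.46%, 2.41%, 2.60% and 2.52% in controls 1 to 4 and 3.02%, 3.39%, 3.05% and 2.68% in knockdown-labelled replicates 1 to 4. It was the 1 share of 7 whose groups did not overlap, a comparison made after the values were seen and given with no test. In levels, 2.98% of all 13146 genes had groups that did not overlap, 1.44% higher and 1.54% lower.

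**Figure D2:**
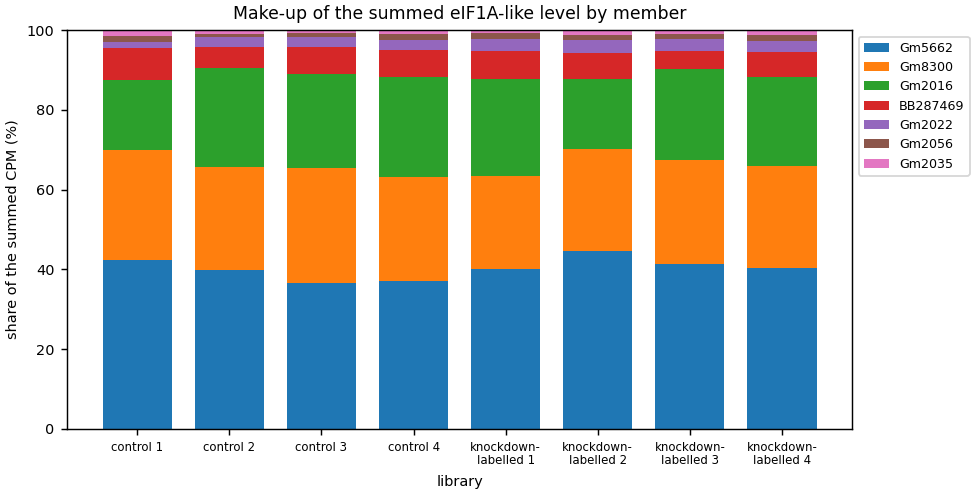
Share (%) of the summed eIF1A-like CPM held by each of the 7 members (stacked colours) in each of the 8 libraries (x axis). Gm5662, Gm8300 and Gm2016 fill 87.5% to 90.4% of every bar.

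AF067063, the more distant Tcstv member, was the steadiest of the 10. It was at 338, 253, 317 and 236 CPM in the controls, a 1.43-fold range. The knockdown-labelled libraries gave 434, 366, 337 and 282 CPM, of which replicates 1 and 2 exceeded all controls. The fitted level was 124% of control with an interval from 92.5% to 166% (log2 fold change in edgeR 0.31, SE 0.19, unadjusted p = 0.133, adjusted p = 1.0). A fall below 92.5% of control lay outside this interval, the narrowest of the 10.

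Gm21761, close in sequence to Tcstv1 and Tcstv3, was at 44.3, 84.3, 32.2 and 68.2 CPM in controls 1 to 4 against 71.4, 55.9, 40.4 and 45.5 CPM under the knockdown label. Its control values moved opposite to those of AF067063, with controls 2 and 4 high in Gm21761 and low in AF067063. Set against AF067063, Gm21761 was 13.1%, 33.3%, 10.2% and 28.8% of its level in controls 1 to 4, and 16.4%, 15.3%, 12.0% and 16.1% in knockdown-labelled replicates 1 to 4. The fitted level of Gm21761 was 93.0% of control (interval 55.0% to 157%).

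Gm4340, the Alyref-like member, was the least abundant. It was at 3.09, 8.35, 2.33 and 5.68 CPM in the controls, from 101 to 265 reads, and at 4.16, 3.64, 0 and 1.03 CPM under the knockdown label, from 0 to 33 reads. No read was counted in knockdown-labelled replicate 3, where a count of 0 allows up to 0.345 CPM (3 counts, counting error only). Replicates 3 and 4 lay below all controls and replicates 1 and 2 inside their range. The fitted level was 45.2% of control, with an interval from 5.76% to 355% (log2 fold change in edgeR −1.15, SE 1.33, adjusted p = 1.0). Neither a marked loss nor a gain was detectable with these libraries.

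Per kilobase of the longest annotated transcript, mean control levels were 484 CPM for Gm5662, 330 for Gm8300, 323 for AF067063, 311 for Gm2016, 127 for Gm2022, 79.96 for BB287469, 55.3 for Gm2056, 52.1 for Gm2035, 41.7 for Gm21761 and 3.86 for Gm4340. Gm5662 stood above Gm8300 in 8 of 8 libraries, although their control ranges overlapped. Neighbouring levels overlapped in the controls at every step but the last, from Gm21761 to Gm4340. Gm8300 exceeded AF067063 in 2 of 8 libraries and AF067063 exceeded Gm2016 in 6 of 8, so these 3 had no fixed order. Eif1a itself was at 46.4 CPM per kilobase in the controls, against 52.1 to 484 CPM per kilobase for the 7 eIF1A-like members. The lengths used for Gm2022, Gm2035 and Gm2056 are those of the coding exon alone, which raises their values if their transcripts are longer. RefSeq gives each of these genes a longer span, for Gm2022 from 87892834 to 87896722. Their places in this order, and against Eif1a, therefore rest on the coding-exon lengths.

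Over all 10 members, 3 log2 fold changes were above 0 (Gm2022, Gm2056 and AF067063) and 7 below 0. Their median was −0.12, against −0.047 for all 13146 genes tested, of which 53.4% lay below 0. None of the 10 passed the edgeR test at an adjusted p of 0.05, where 0% of all genes were called in either direction and 369 genes (2.81%) had an unadjusted p under 0.05. DESeq2 called 20 genes, 0.154% of those with an adjusted p, and limma-voom none, with 863 genes at an unadjusted p under 0.05. No member was among the calls of any of these tools. In none of the 10 did the groups fail to overlap, against 2.98% of all genes, 1.44% with all knockdown-labelled values higher and 1.54% with all of them lower.

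**Figure D3:**
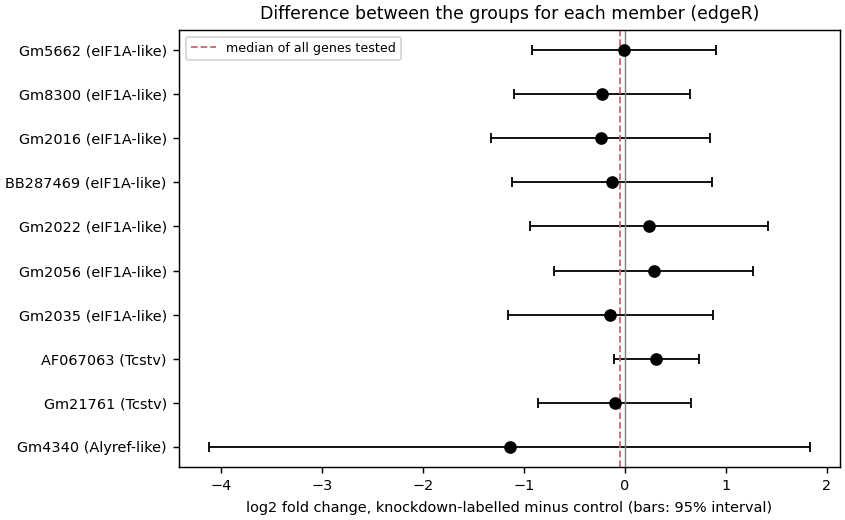
Log2 fold change of each member, knockdown-labelled minus control (x axis), with its 95% interval from edgeR; the dashed line is the median of all 13146 genes tested. Every interval includes 0, from the narrowest in AF067063 to the widest in Gm4340.

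For 8 of the 10 members the sign changed when a single library was left out. Without control 2, 9 members were above 0 and 1 below, and without knockdown-labelled replicate 1 it was 1 above and 9 below. Without control 4 there were 6 above 0, without knockdown-labelled replicate 3 there were 7, and without control 1 there were 2. AF067063 and Gm4340 kept their sign whichever library was left out, and Gm4340 alone kept it in each of the 19 alternatives that could be run for it, from −2.22 to −0.73.

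What the members shared was the order of the libraries within each group, a pattern described after the values were seen. Controls 2 and 4 were both above controls 1 and 3 in 9 of the 10 members, the exception being AF067063, with the opposite order. Of all genes tested 16.7% had the first order and 15.9% the opposite. Knockdown-labelled replicates 1 and 2 were both above replicates 3 and 4 in 9 of the 10, with Gm2035 the exception, against 16.3% of all genes. The members are not independent here, since the copies share sequence and lie in clusters.

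**Figure D4:**
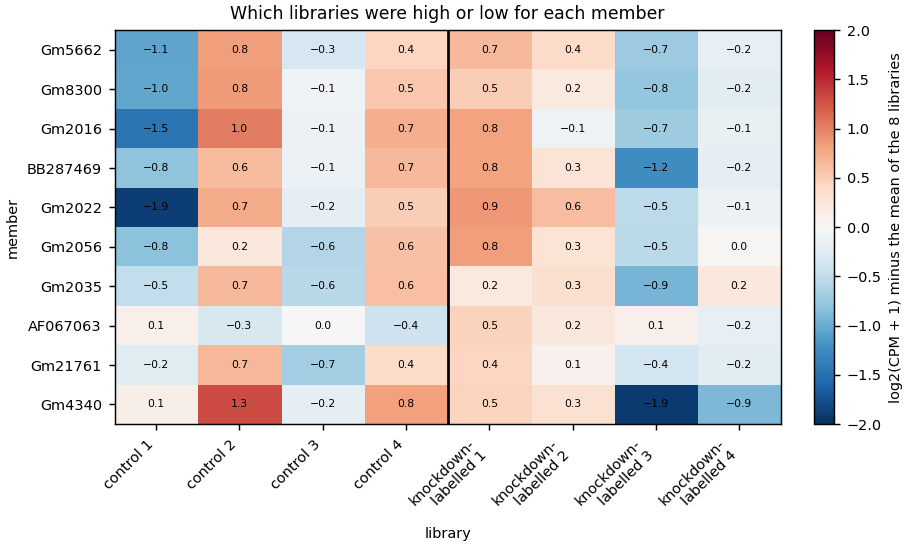
Log2(CPM + 1) of each member (rows) in each library (columns) minus the mean of that member over the 8 libraries; red is above and blue below the mean. Controls 2 and 4 are red in every row except AF067063, and knockdown-labelled replicate 3 is blue in every row except AF067063.

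The size of the swing was large for the 3 most abundant members. Gm5662, Gm8300 and Gm2016 differed 3.74-, 3.71- and 5.62-fold between the highest and the lowest control. Among genes of like level the median range was 1.52-, 1.55- and 1.56-fold, and 98.1%, 98.9% and 99.3% of them had a smaller range. In the knockdown-labelled libraries the same 3 genes ranged 2.61-, 2.42- and 2.86-fold, against like-level medians of 1.49-, 1.51- and 1.53-fold. The other members were less extreme in the controls. A smaller range was seen in 96.8% of like-level genes for Gm2022, 88.5% for BB287469 and 68.0% for Gm21761. For Gm2056, Gm2035 and Gm4340 it was 52.6%, 37.3% and 18.4%. AF067063, with 1.43-fold in the controls, ranged less than the median of 1.62-fold for genes of its level. In depth, controls 2 and 4 held 35007621 and 40702824 counts, between controls 1 and 3 with 33311679 and 43748629. Knockdown-labelled replicates 1 and 2 held 4726160 and 8627402 counts against 8100972 and 33650068 in replicates 3 and 4. Whether depth bears on the order of the libraries was not tested.

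Other annotated copies of the same families were then examined, defined as GENCODE genes with at least 75% identity over at least 80% of a member's coding sequence, with Eif1a and Eif1ax left aside. There were 19 eIF1A-like copies, 18 of them on chromosome 12 between 87494721 and 88329682, and 14 Tcstv copies, 12 of them on chromosome 13 between 119827961 and 120318178. The Alyref-like copies numbered 28, with 22 on chromosome 10, and 27 were in the table. The 7 eIF1A-like members held 59.5% to 68.6% of the CPM of all 19 copies. Summed over the 19, the level was 3460 ± 1751 CPM in the controls against 3423 ± 1364 in the knockdown-labelled libraries (SD, n = 4 each). The 14 Tcstv copies summed to 2421 ± 649.3 and 2556 ± 799 CPM, and the 27 Alyref-like copies in the table to 494 ± 202 and 420.4 ± 152 CPM, a log2 ratio of −0.23 where Gm4340 alone had a fitted −1.15. Most counts of the Alyref-like copies came from 4931428L18Rik on chromosome 1, named after its values were seen. It held 86279 counts over the 8 libraries against 796 for Gm4340, so their sum says little about Gm4340 itself. In all 3 families the difference between the means was smaller than the SD of either group.

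The library order extended to the eIF1A-like copies that are not members. Of 11 tested, 10 had controls 2 and 4 above controls 1 and 3, and 9 had knockdown-labelled replicates 1 and 2 above 3 and 4. Of 12 other Tcstv copies 6 and 7 had these orders. Among 20 tested genes of the 2-cell burst from other families there were 5 and 10, and among 13 translation factors that work with eIF1A there were 1 and 3.

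How much of each copy can be told apart was measured by the share of its windows of 100 bases that occur in no other gene's transcript. Gm8300 had 89.2% such windows, Gm21761 58.0%, Gm2035 54.5%, Gm2056 49.4%, AF067063 43.5%, Gm5662 41.6%, Gm2016 35.3% and Gm2022 33.3%. BB287469 had 8.68% and Gm4340 5.52%.

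Across the 60 copies in the table, 15 had no window of their own, and 13 of these, all of them Alyref-like, were at 0 in all 8 libraries. The exceptions, named after their values were seen, were Gm8332 with 6466 reads in all and Gm21293 with 26. None of the 45 copies with a window of their own was at 0, but some were close to it. Gm13368 had 1 read in all and Gm8384 had 2, although 100% of their windows were their own. All 80 values of the 10 members were whole numbers within 0.001, as were 85.6% of all values above 0 in the table, although reads divided by estimation need not give whole numbers. The sources used here do not give the counting rule. Whether a member's count leaves out reads that match other copies was not tested, and comparisons of level between copies carry this limit.

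**Figure D5:**
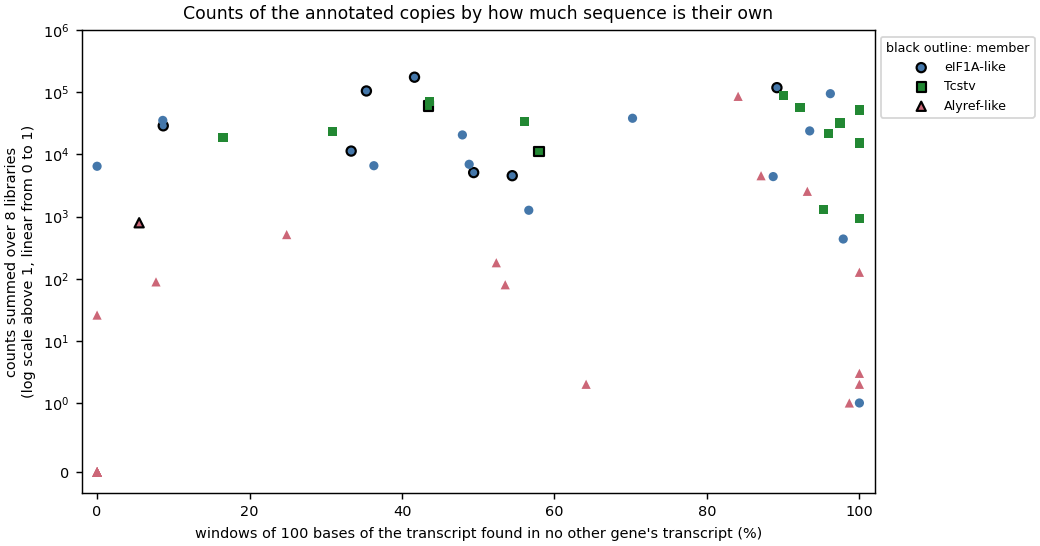
Counts summed over the 8 libraries (y axis, log scale above 1) against the share of windows of 100 bases found in no other gene's transcript (x axis, %), for 60 annotated copies of the 3 families; members have a black outline. The 13 copies at 0 counts all lie at 0%.

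Genes around the members gave the same picture of overlapping groups. Of 11 relatives listed for eIF1A, 10 were in the table and 8 were tested, 3 above 0 and 5 below, with a median log2 fold change of −0.014 and none past the test. Eif1, the start-codon selection factor that works beside eIF1A, was at 1268 ± 82.6 CPM in the controls against 1248 ± 45.5 CPM under the knockdown label (SD, n = 4 each). Eif1a was at 109, 109, 188 and 126 CPM in the controls against 57.7, 104, 125 and 128 CPM under the knockdown label. Its edgeR difference was −0.36 on the log2 scale (SE 0.29, adjusted p = 1.0). Eif1a was alike in controls 1 and 2, the lowest and the highest control for the eIF1A-like sum. Gm4027, whose coding sequence equals that of BB287469, was at 47.0, 283, 171 and 206 CPM in the controls against 278, 189, 85.9 and 152 CPM under the knockdown label, the same order of libraries as most members. Gm21312 and Gm6763, listed as eIF1A relatives, matched the Alyref-like group by sequence and were at 0.

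Of 8 genes listed as Tcstv neighbours, 4 were in the table under the symbols used and all 4 were tested, 1 above 0 and 3 below (median −0.12). Tcstv3 was at 294 ± 104 CPM in the controls against 271 ± 89.9 CPM under the knockdown label, and AF067061 at 279 ± 158 and 227 ± 172 CPM (SD, n = 4 each). Among the controls AF067061 ranged from 91.3 CPM in control 1 to 459 CPM in control 2. None of the 4 passed the test.

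Of 24 other 2-cell burst genes, 20 were tested, 12 above 0 and 8 below (median 0.10). Arg2, which encodes the mitochondrial arginase, was at 239 ± 46.7 and 291 ± 123 CPM, and Zscan4d, a zinc finger gene of the 2-cell burst, at 161 ± 76.8 and 148 ± 55.9 CPM (SD, n = 4 each). Of the 13 translation partners of eIF1A all were tested, 10 above 0 and 3 below (median 0.16). Eif3a, a scaffold subunit of the initiation factor eIF3, had the smallest p of these, at 97.0 ± 20.3 and 135 ± 28.8 CPM (SD, n = 4 each), with an adjusted p of 1.0 in edgeR. No gene of either list passed the test, and none had groups that did not overlap.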

How the data were processed

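The authors deposited a table of unnormalised expected counts, with genes in rows and the 8 libraries in columns. The submitters' processing notes name RSEM 1.2.28, STAR 2.7.3a, Trim Galore 0.6.10 and the build GRCm38 (mm10). Per the labels' protocols, RNA was isolated with TRIzol and libraries prepared with the NEBNext Ultra RNA kit. The sources used here do not give the annotation release, strand setting, read length or filters. No molecular identifiers are named, so reads are not independent molecules.

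Rounding to whole counts changed 4.22% of all entries. Of 26410 genes with a count, 13146 passed edgeR's filterByExpr (minimum count 10, minimum total 15), all 10 members among them. Groups were compared with edgeR 4.0.16 in R 4.3.3 (TMM, robust quasi-likelihood test, group as the only term), with Benjamini-Hochberg adjustment over all genes tested and a threshold of 0.05. Intervals are at 95% and include the spread between libraries. The common biological coefficient of variation was 0.987. The members' own coefficients ran from 0.239 for AF067063 to 0.532 for Gm2022, with Gm4340 apart at 1.18. On simulated data with the measured spread, the test recovered 4 of 100 simulated 2-fold changes and 43 of 100 at 4-fold, with 5 false calls among 12261 genes. With a dispersion of 0.05 it called 85 and 100, with 5 false calls among 13107 genes. DESeq2 1.42.0 and limma 3.58.1 (voom) were alternatives, with other scalings, filters, thinning and left-out libraries.

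Coding sequences came from GENCODE M21 (GRCm38), promoters from RefSeq (GRCm38.p6, entries used for 3 of 10 members). Grouping had been planned by protein identity of at least 50%, and coding identity of at least 70% was used instead because no protein sequences were used here. Copies were found with BLAST 2.17.0 and aligned with Biopython 1.88. The genes named are the 10 members, Polq, and of each comparison list at most the 2 most abundant and the 2 of smallest p. Other copies, relatives and markers are named where their sequence or counts are described. The members and lists were chosen with earlier results of these data known.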

Additional observations from a re-analysis of the deposited data

Results flagged for a closer look

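Of 48 groups of 4 values examined for a library far from the others, 3 had one, and chance gives about 1 in 20. The share of Gm2022 in the summed eIF1A-like level was 1.46% in control 1, below the 2.41% to 2.60% of the other controls. The share of Gm2056 was 1.27% in knockdown-labelled replicate 2, where each of the 3 others was at 1.42%. Gm2035 was at 10.1 CPM in knockdown-labelled replicate 3, below the 23.2 to 25.4 CPM of the others.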

How the results depend on the processing

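No member passed the threshold under any alternative run. DESeq2's test called 14 genes higher and 6 lower where edgeR called none. Under every other alternative, each left-out library included, 0 genes were called in either direction. The member median ran from −0.31 to 0.12 over all alternatives, and the log2 ratio of the summed member level from −0.32 to 0.20. Gm5662 moved above 0 with library totals (0.035), upper-quartile scaling (0.028), DESeq2 size factors (0.0086), a filter of 5 CPM in 4 libraries (0.013), DESeq2's test (0.0087) and libraries thinned to the smallest total (0.044). Thinning also moved Gm21761 to 0.0065. With knockdown-labelled replicate 4 as the only library of its group, Gm2022 was at −0.20, Gm2035 at 0.053 and AF067063 at −0.015, 1 member of 10, Gm4340, had groups that did not overlap (36.7% of all 13146 genes lay outside the controls in this library), and the lone library was assumed to vary like the controls. With that library the log2 ratio of the summed Tcstv level was −0.062 and that of the Alyref-like level −2.22.

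With 1 library left out, log2 fold changes ran from −0.25 to 0.33 for Gm5662, −0.48 to 0.054 for Gm8300, −0.60 to 0.10 for Gm2016, −0.47 to 0.14 for BB287469, −0.083 to 0.55 for Gm2022, −0.33 to 0.082 for Gm2035, −0.0013 to 0.58 for Gm2056, −0.30 to 0.15 for Gm21761, 0.20 to 0.41 for AF067063 and −1.64 to −0.73 for Gm4340. The labels do not say whether equal replicate numbers pair the samples. Correlations of same-numbered deviations were −0.12, −0.0030, −0.0072 and 0.017, and no control correlated best with its own number. With 4 libraries per group these correlations cannot decide the question. A replicate block gave 0 calls (293 genes had an unadjusted p under 0.05) and put Gm5662 at 0.030. The cause of these changes was not tested. Gm4340 had 0 to 30 reads in knockdown-labelled replicates 1 to 3 and 33 in the deeper replicate 4. Whether depth bears on its level was not tested.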
